A study of Mus musculus with 6 samples.

Results

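The collagen chains are the genes whose symbols in the deposited count table consist of Col, a type number, the letter a and a chain number. This rule found 41 chains among the 22966 genes of the table, in libraries from primary mouse hepatic stellate cells. They were divided by known assembly into 10 fibrillar chains, 6 chains of basement membrane type IV, 8 network-forming chains, 8 FACITs (fibril-associated collagens with interrupted helices) and 9 others. The chains Col2a1, Col9a1, Col10a1 and Col21a1 were not analysed here. RNA was sequenced from 3 libraries titled Cre and 3 titled flox, and the groups rest on the titles alone. All 6 libraries carry the same genotype entry, BucheHep, and the same CCl4 treatment entry, a hepatotoxin given to induce liver fibrosis. The housing note names BucheΔHep mice, and the series concerns a knockout of butyrylcholinesterase in hepatocytes and its bearing on stellate cell activation through muscarinic signalling. The sources used here give neither the promoter that drives Cre, nor strain, age, CCl4 dose or the number of animals behind a library. Whether the libraries within a group stem from different mice is not stated, so each p-value reflects only the spread among libraries, which may be technical.

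Collagens are secreted or membrane-bound proteins whose chains wind into helical trimers. The fibrillar chains of types I, III and V build the cables of the liver scar, type IV chains build the sheet beneath endothelium and epithelium, and FACITs decorate the fibrils. Type VI and type VIII chains form fine networks. Hepatic stellate cells are retinoid-storing pericytes of the liver sinusoid that turn into collagen-producing myofibroblasts after injury, and endothelial and mesothelial cells of the liver also express collagen genes.

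The gene of that enzyme, Bche, had 15, 8 and 2 counts in Cre 1, 2 and 3, against 17, 6 and 21 counts in flox 1, 2 and 3. Since the deletion is described for hepatocytes, these libraries do not check it. The libraries held 37273142 to 41006722 counts. Transcripts of stellate cells were present, with the extracellular glycoprotein Reln at 41.7, 33.5 and 151 CPM (counts scaled to a common library size with TMM factors for composition) in Cre 1, 2 and 3, against 38.4, 32.2 and 25.5 in flox 1, 2 and 3. The PDGF receptor gene Pdgfrb stood at 40.9, 52.2 and 127 CPM in the Cre libraries, against 71.3, 46.1 and 34.4 in the flox libraries. The retinoid-esterifying enzyme Lrat was low, at 1.03, 0.169 and 0.758 CPM in Cre and 2.49, 2.41 and 0.124 CPM in flox. Macrophage transcripts were abundant and unequal. Summed over 16 macrophage markers they reached 2569, 2514 and 3011 CPM in Cre 1, 2 and 3, against 18237, 23186 and 8253 CPM in flox 1, 2 and 3. Of the 16 markers 15 fell and 0 rose, against 8.94% and 6.35% of all genes tested. No marker of this list was at 0 in every library. Of 9 tested hepatocyte markers, 7 smooth muscle markers and 7 cholangiocyte markers 0 passed the test, against 15.3% of all genes tested. At an unadjusted p below 0.05 there were 3, 3 and 0, against 34.8% of all genes tested. The 3 hepatocyte markers were all lower, and of the 3 smooth muscle markers 2 were higher and 1 lower. Of the 9 tested hepatocyte markers, 8 had negative log2 fold changes (Cre over flox) and 1 a positive one, with a median of -0.87. All Cre libraries lay below all flox libraries for 2 of these 9, against 20.0% of all genes tested. Of 8 portal fibroblast markers 1 was higher, against 6.35% of all genes tested. Hepatocyte markers summed to 216, 57.9 and 320.2 CPM in Cre and 175, 299 and 609.6 CPM in flox. In bulk libraries, fewer cells of a type and less RNA per cell cannot be told apart. The library flox 3 lay nearest to the Cre libraries in the macrophage sum, and several results that turn on it are given with and without it.

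Collagen transcripts as a whole were higher on average in the Cre libraries, by a margin that depended on the measure. Counts for all 41 chains made up 0.502, 0.664 and 0.755% of all counts in Cre 1, 2 and 3, against 0.493, 0.258 and 0.419% in flox 1, 2 and 3. Each Cre library lay above each flox library, but only narrowly between Cre 1 and flox 1. These shares leave out the TMM factors, which were 1.07 in Cre 1 and 0.929 in flox 1 and would put Cre 1 below flox 1. Summed per length, as FPKM (counts scaled by gene length and library total, the unit of the second deposited table), the chains reached 798, 1075 and 1183 in the Cre libraries, against 805, 417 and 656 in the flox libraries, and there Cre 1 fell below flox 1. The smallest p that an exact permutation test allows for 3 against 3 libraries is 0.10, and these sums were not tested.

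Of the 41 chains, 29 passed the filter on low counts and were tested with edgeR's quasi-likelihood test, with Benjamini-Hochberg adjustment over all 14795 genes tested. Those higher in Cre libraries at an adjusted p below 0.05 were 2 of 29 chains, 6.90%, against 6.35% of all genes tested. Those lower were also 2 of 29, 6.90%, against 8.94% of all genes tested. In either direction the 4 of 29 compare with 15.3% of all genes tested. These shares lie near the background, so the counts are no result about collagens as a family. At an unadjusted p below 0.05 there were 7 of 29 chains, against 34.8% of all genes tested. All 3 Cre libraries lay above all 3 flox libraries for 4 chains, 13.8%, against 19.6% of all genes tested, and below them for 3 chains, 10.3%, against 20.0%. In the other 22 chains the groups overlapped, and either kind of separation held for 39.6% of all genes tested. The median log2 fold change, Cre over flox, was 0.45 over the 29 chains and 0.012 over all genes tested, with 19 chains on the positive side and 10 on the negative side. By class, the median was 0.91 for 5 basement membrane chains, 0.45 for 5 network chains, 0.41 for 9 fibrillar chains, -0.073 for 5 FACITs and -1.06 for 5 other chains.

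**Figure D1:**
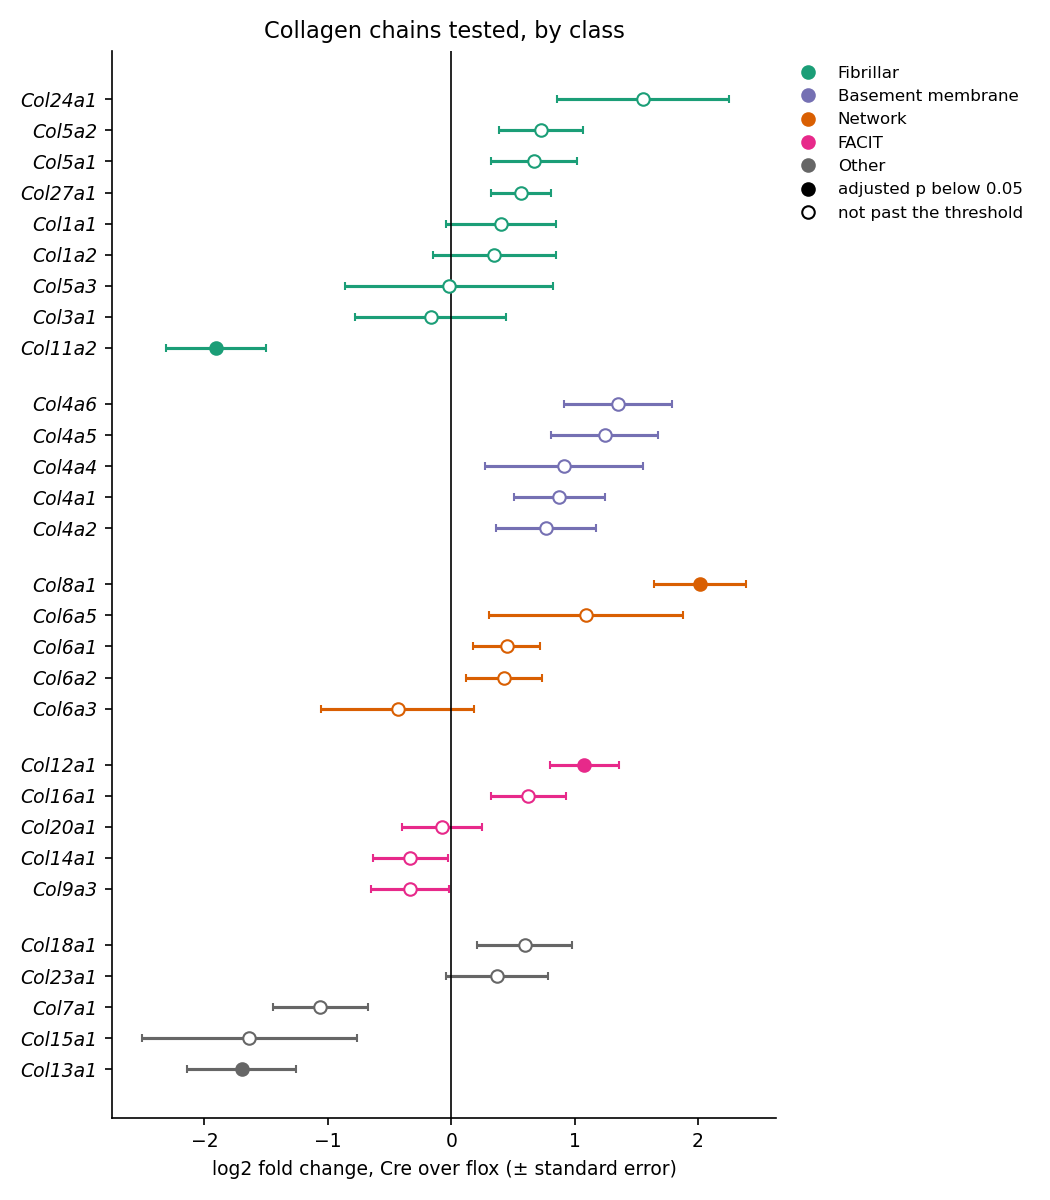
Log2 fold changes, Cre over flox, of the 29 tested chains, on the horizontal axis, with points for the edgeR estimate and bars for its standard error, in 5 colours for the 5 classes. Filled points mark the 4 chains with an adjusted p below 0.05, of which Col8a1 and Col12a1 lie to the right of 0 and Col11a2 and Col13a1 to the left, and all 5 type IV chains lie to the right without passing the test.

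Per length, a few chains held almost all of the collagen transcripts. The mean over the 6 libraries exceeded 10 FPKM for 11 of the 29 tested chains, lay between 1 and 10 for 8 and was below 1 for 10. The 11 were both type I chains, Col3a1, the 3 type V chains, Col4a1, Col4a2 and the 3 leading type VI chains. The first of them was Col4a1, at 340.4 ± 79.9 FPKM in Cre and 169.7 ± 88.5 FPKM in flox libraries (SD, n = 3 each). Next came its partner Col4a2, at 205 ± 50.4 FPKM in Cre and 110.3 ± 65.6 in flox. Col1a1 followed at 111 ± 33.2 FPKM in Cre and 74.3 ± 44.5 in flox, so that a basement membrane pair outranked the classical scar chains in the mean. Col4a1 came first in each of the 6 libraries. Col4a2 came second in the Cre libraries and flox 3, whereas Col1a1 came second in flox 1 and flox 2.

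In the make-up of the collagen transcripts, the range of the flox libraries enclosed that of the Cre libraries for types I, III and IV. Col4a1 and Col4a2 together made up 53.7, 48.6 and 57.9% of the summed collagen FPKM in Cre 1, 2 and 3, against 30.7, 34.8 and 68.3% in flox 1, 2 and 3. The type I chains made up 20.0, 27.2 and 14.5% in the Cre libraries, against 29.9, 25.6 and 11.8% in the flox libraries. Col3a1 made up 5.05, 5.53 and 8.69% in Cre, against 15.2, 13.1 and 3.83% in flox. In each of these shares flox 3 stood at one end of the 6 libraries, with the highest share of type IV and the lowest shares of types I and III. Leaving flox 3 aside, each Cre library lay above flox 1 and flox 2 in the type IV share and below them in the Col3a1 share. The type I shares still overlapped through Cre 2. The 3 type V chains kept to 9.54, 7.76 and 10.5% in Cre and 10.4, 10.4 and 6.94% in flox, and the 3 type VI chains to 7.77, 7.66 and 5.71% in Cre and 9.25, 10.3 and 5.79% in flox.

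**Figure D2:**
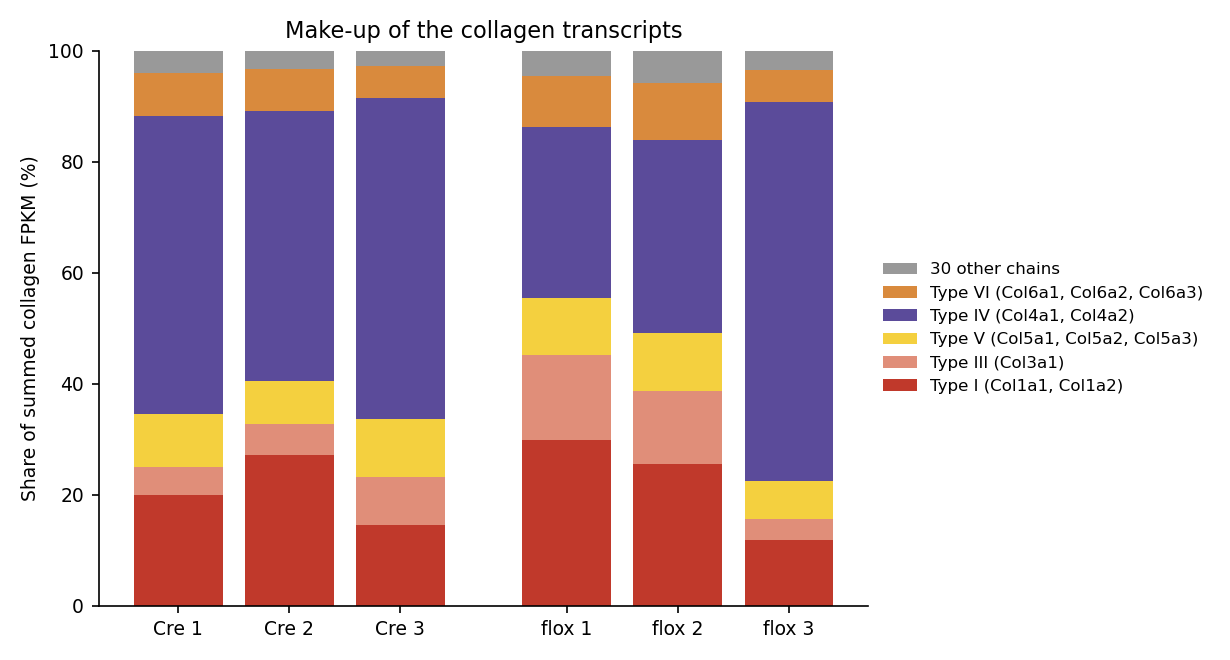
Stacked bars of the share of summed collagen FPKM, in percent on the vertical axis, for the 3 Cre libraries and the 3 flox libraries. The type IV pair fills 48.6 to 57.9% of each Cre bar, against 30.7% of the flox 1 bar and 68.3% of the flox 3 bar.

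The chains past the test were all of low or moderate level. Col8a1 (chromosome 16, 57624258 to 57754737 in GRCm38), a short network-forming chain known from vessel walls, rose. It stood at 11.4, 11.8 and 6.43 CPM in Cre 1, 2 and 3, against 3.41, 2.24 and 1.67 CPM in flox 1, 2 and 3. The groups did not overlap, and Cre 3 was the lowest Cre library. The means were 9.88 ± 2.99 CPM in Cre and 2.44 ± 0.891 CPM in flox (SD, n = 3 each), a log2 fold change of 2.02 ± 0.37 (standard error, adjusted p = 0.0254, edgeR). Col12a1 (chromosome 9, 79598991 to 79718831), a FACIT that sits on the surface of type I fibrils, also rose. It stood at 12.1, 13.0 and 10.4 CPM in the Cre libraries, against 7.90, 4.48 and 4.43 CPM in the flox libraries. Every Cre library was above 10 CPM and every flox library below 8, with a log2 fold change of 1.08 ± 0.28 (adjusted p = 0.0470, edgeR).

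Col11a2 (chromosome 17, 34039437 to 34066685), a minor fibrillar chain best known from cartilage, fell to 1.13, 1.13 and 1.44 CPM in Cre 1, 2 and 3, against 4.31, 6.87 and 2.76 CPM in flox 1, 2 and 3. The Cre libraries were close to each other and all below flox 3, the lowest flox library. Its log2 fold change was -1.91 ± 0.40 (adjusted p = 0.0310, edgeR), from 45, 47 and 59 counts in Cre and 164, 239 and 111 counts in flox. Col13a1 (chromosome 10, 61838236 to 61979108), a transmembrane collagen found at cell adhesion sites, fell to 2.98, 9.29 and 3.77 CPM in the Cre libraries, against 17.9, 14.4 and 19.8 CPM in the flox libraries. The groups did not overlap, although Cre 2 stood far above the other Cre libraries, and the log2 fold change was -1.70 ± 0.44 (adjusted p = 0.0475, edgeR). The macrophage sum was lower in each Cre library too, at 2514 to 3011 CPM, against 8253 to 23186 CPM in flox. Its part in these falls was not tested. In flox 3, which had the lowest macrophage sum of the flox libraries, Col11a2 was lowest and Col13a1 highest of the group.

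All 4 calls ended when Cre 1, Cre 2, flox 1 or flox 2 was left out, where 0 genes of the whole table passed the test in edgeR. In those 4 fits the log2 fold changes ran from 1.90 to 2.35 for Col8a1, 0.96 to 1.42 for Col12a1, -1.94 to -1.50 for Col11a2 and -2.34 to -1.39 for Col13a1. Without Cre 3 the adjusted p was 0.0305 for Col8a1, 0.0664 for Col12a1, 0.0560 for Col11a2 and 0.111 for Col13a1, and without flox 3 all 4 passed (edgeR). The fit without flox 3 called 2447 of 15296 genes higher and 2882 lower, against 940 and 1323 of 14795 in the main fit. The fit without Cre 3 called 771 of 15288 genes higher and 598 lower. Over the other scalings, filters and tools with all 6 libraries, the call of Col13a1 ended with library totals as the scaling (adjusted p = 0.0578), and that of Col11a2 in limma-voom (adjusted p = 0.0559) and on log2(FPKM + 1) (adjusted p = 0.0537, limma). In the fits with 0 calls, 1638 to 1900 genes were higher and 1852 to 2078 lower at an unadjusted p below 0.05.

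The bases before the start sites of the called chains are shown because these are the chains that differed between the groups, and that of Col4a6 because that gene lies head to head with Col4a5, whose values ran beside its own. The table of RefSeq start sites used here (GRCm38.p6) matched 33 of the 41 chains by symbol, and the window of Col12a1 is not shown. Each line holds the 250 bases before the start, 5′ to 3′ along the gene, none of them in an annotated exon of GENCODE M21. Capitals mark matches on either strand to the TATA box (TATAAA), the CCAAT box (CCAAT), the GC box (GGGCGG), the AP-1 site (TGANTCA), a SMAD element (CAGACA) or a TEAD element (GGAATG), no pair of which overlaps in these windows. A match on the opposite strand shows the reverse complement, as each GC box does here.
Col8a1 (chr16:57754738-57754987, minus strand): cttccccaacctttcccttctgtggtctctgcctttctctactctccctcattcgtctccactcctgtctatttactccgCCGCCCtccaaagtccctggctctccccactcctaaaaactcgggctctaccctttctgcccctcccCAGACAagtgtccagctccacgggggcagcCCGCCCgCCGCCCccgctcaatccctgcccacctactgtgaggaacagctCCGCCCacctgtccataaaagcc
Col13a1 (chr10:61979109-61979358, minus strand): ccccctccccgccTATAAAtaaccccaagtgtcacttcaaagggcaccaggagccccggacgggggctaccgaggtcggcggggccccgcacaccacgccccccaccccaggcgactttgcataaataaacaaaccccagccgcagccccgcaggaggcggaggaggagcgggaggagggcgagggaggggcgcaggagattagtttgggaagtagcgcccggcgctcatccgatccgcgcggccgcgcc
Col11a2 (chr17:34038888-34039137, plus strand): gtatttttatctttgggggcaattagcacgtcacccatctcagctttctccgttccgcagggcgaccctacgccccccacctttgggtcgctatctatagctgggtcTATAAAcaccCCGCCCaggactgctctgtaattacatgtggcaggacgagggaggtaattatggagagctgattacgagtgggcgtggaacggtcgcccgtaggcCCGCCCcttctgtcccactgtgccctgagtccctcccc
Col4a6 (chrX:141474077-141474326, minus strand): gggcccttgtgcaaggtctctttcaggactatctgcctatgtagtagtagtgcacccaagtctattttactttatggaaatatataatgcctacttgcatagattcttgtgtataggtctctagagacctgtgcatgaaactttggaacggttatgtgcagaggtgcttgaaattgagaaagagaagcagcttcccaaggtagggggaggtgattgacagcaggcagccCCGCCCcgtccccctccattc

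The window of Col8a1 held 4 GC boxes and 1 SMAD match, and 60.8% of its bases were G or C. The window of Col13a1 held 1 match, a TATA box 237 bases before the start, in 68.8% G and C. The window of Col11a2 held 1 TATA box and 2 GC boxes, and that of Col4a6 held 1 GC box, 21 bases before the start. The window of Col11a2 ends at 34039137, short of the GENCODE M21 start of the gene at 34039437, so RefSeq and GENCODE differ there. Among all 32851 windows of the same length in the table, 32.7% held a GC box, 12.4% a TATA box, 17.1% a SMAD match, 33.8% a CCAAT box, 12.6% a TEAD match and 6.75% an AP-1 match. Of the 33 collagen genes with a window, 21 held a GC box, 12 a CCAAT box, 9 a SMAD match, 4 a TATA box, 4 a TEAD match and 1 an AP-1 match. These are matches of letters only.

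**Figure D3:**
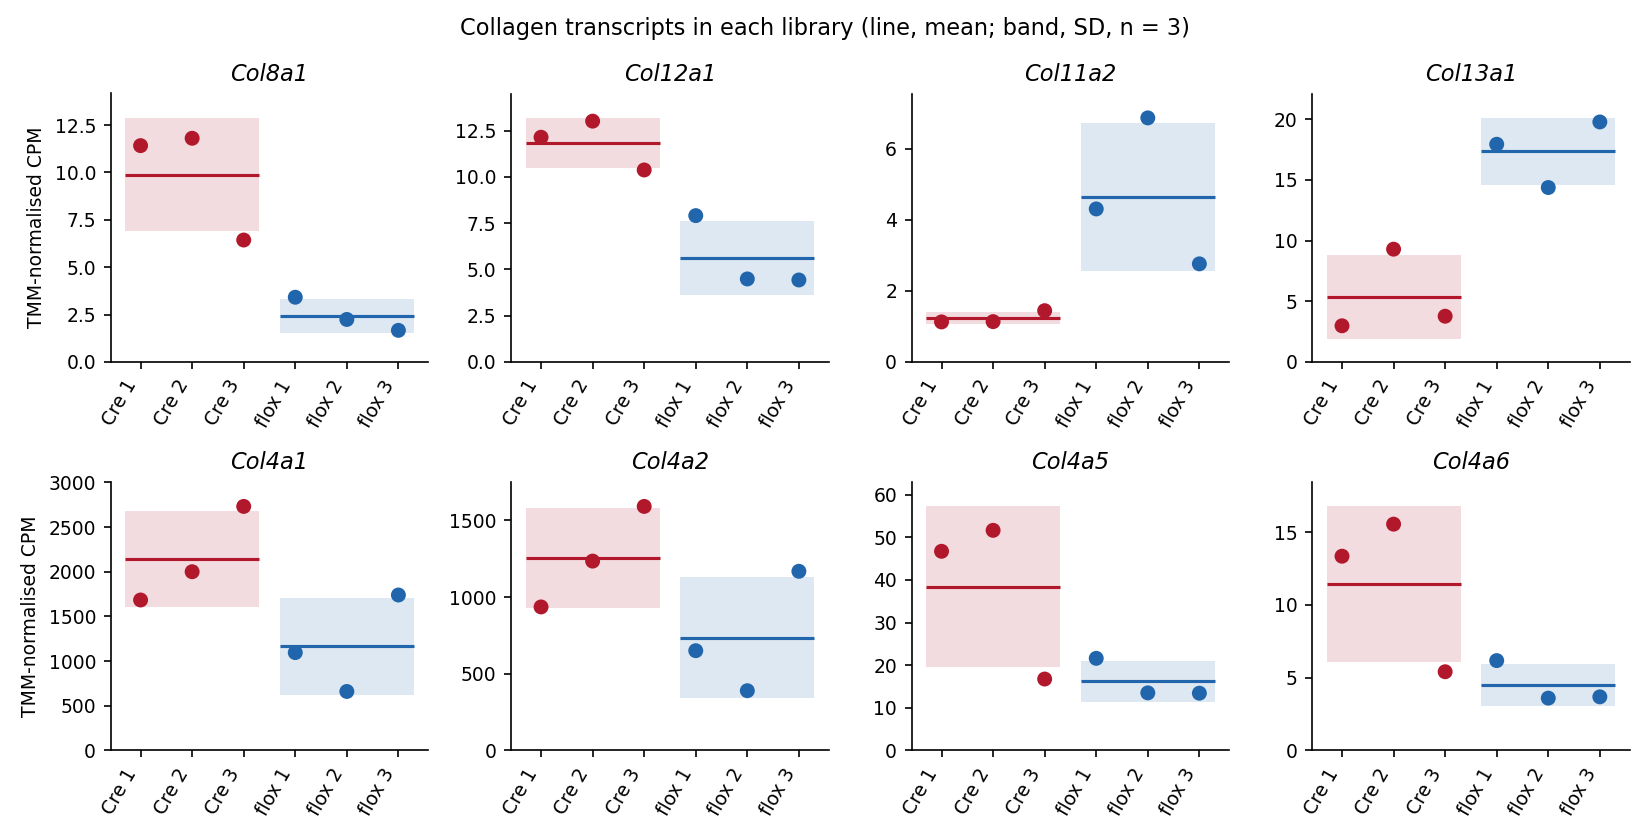
TMM-normalised CPM, on the vertical axes, of the 4 called chains and 4 type IV chains in the 3 Cre libraries (red) and the 3 flox libraries (blue), with a line for the mean and a band for the SD of each group. The groups stand apart for Col8a1, Col12a1, Col11a2 and Col13a1, while flox 3 reaches into the Cre range for Col4a1 and Col4a2 and Cre 3 reaches into the flox range for Col4a5 and Col4a6.

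Among the fibrillar chains, those that form the bulk of scar collagen differed by less than the spread between libraries. Col1a1 (chromosome 11, 94936224 to 94953042) stood at 490.2, 836 and 544 CPM in Cre 1, 2 and 3, against 797, 371 and 243 CPM in flox 1, 2 and 3, a log2 fold change of 0.41 ± 0.45 (adjusted p = 0.550, edgeR). Col1a2 (chromosome 6, 4504814 to 4541544) stood at 345, 705 and 384 CPM in Cre, against 652, 288 and 185 CPM in flox, at 0.35 ± 0.50 on the log2 scale (adjusted p = 0.652, edgeR). For both chains Cre 2 and flox 1 were the high libraries and flox 3 the low one. Without flox 1 the log2 fold change of Col1a1 was 1.03 and that of Col1a2 1.03 (adjusted p = 0.130 and 0.180, edgeR). Without flox 3 that of Col1a1 was 0.096, and without Cre 2 that of Col1a2 was -0.0066.

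Col3a1 (chromosome 1, 45311538 to 45349706), which forms homotrimers that co-assemble with type I collagen, had another order of libraries. It stood at 209, 313 and 551 CPM in Cre 1, 2 and 3, against 732, 335 and 139 CPM in flox 1, 2 and 3. Cre 3 and flox 1 were highest here and the groups overlapped throughout, with a log2 fold change of -0.17 ± 0.61 (adjusted p = 0.870, edgeR). The sign turned without flox 1, to 0.61, and with library totals as the scaling, to 0.0067. Exons of Col3a1 overlap those of the predicted gene Gm47302, and the sources used here do not say whether counting used strand.

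Type V chains regulate the diameter of type I fibrils. Col5a2 stood at 295, 359.7 and 285 CPM in Cre, against 299.5, 148 and 119 CPM in flox, and only flox 1 reached the Cre range (0.73 ± 0.34, adjusted p = 0.182, edgeR). Col5a1, whose exons overlap 2 further annotated genes, stood at 175, 180.2 and 338 CPM in Cre, against 205, 108 and 122 CPM in flox (0.67 ± 0.35, adjusted p = 0.217, edgeR). Col5a3 had the widest spread within the Cre group among the chains of more than 10 FPKM. It stood at 35.9, 19.9 and 223 CPM in Cre 1, 2 and 3, against 124, 80.0 and 78.3 CPM in flox 1, 2 and 3, so that Cre 3 exceeded Cre 2 by a factor of 11.2. Its log2 fold change of -0.017 ± 0.84 (adjusted p = 0.992, edgeR) became -1.73 without Cre 3 (adjusted p = 0.0429, edgeR) and 0.13 with library totals. The fit without Cre 3 called 598 of 15288 genes lower.

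The remaining fibrillar chains were minor. Col24a1 was named after its values were seen, as were Col27a1, Col4a4, Col4a5, Col4a6, Col6a5, Col7a1, Col9a3, Col20a1, Col23a1 and the untested chains below. It stood at 5.01, 10.7 and 1.71 CPM in Cre, against 2.84, 2.07 and 1.02 CPM in flox. Its Cre libraries spanned a factor of 6.24 and its log2 fold change was 1.55 ± 0.70 (adjusted p = 0.166, edgeR). Col27a1 stood at 8.43, 9.24 and 6.21 CPM in Cre, against 5.67, 4.37 and 6.12 CPM in flox, without overlap but by a small margin between Cre 3 and flox 3 (0.56 ± 0.24, adjusted p = 0.153, edgeR).

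The type IV chains had positive log2 fold changes in all 5 tested members, and 0 of 5 passed the test in edgeR, with 2 of 5 at an unadjusted p below 0.05, against 34.8% of all genes. In DESeq2 2 of 5 were called higher, against 13.4% of all genes. Col4a1 (chromosome 8, 11198423 to 11312826) and Col4a2 (chromosome 8, 11312805 to 11449287) encode the chains of the common basement membrane heterotrimer. Col4a1 stood at 1683, 1999.6 and 2731 CPM in Cre 1, 2 and 3, against 1095, 659.8 and 1739 CPM in flox 1, 2 and 3, and Col4a2 at 936, 1235 and 1592 CPM in Cre, against 651, 389.5 and 1169 CPM in flox. For both, flox 3 lay above Cre 1 and the other flox libraries below every Cre library. The log2 fold changes were 0.88 ± 0.37 for Col4a1 and 0.77 ± 0.41 for Col4a2 (adjusted p = 0.144 and 0.227, edgeR). Without flox 3 they were 1.29 and 1.27, and both passed (adjusted p = 0.0211 and 0.0239, edgeR). In that fit 2447 of 15296 genes were called higher, against 940 of 14795 in the main fit.

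The sum of endothelial transcripts moved with these values among the flox libraries, while single markers differed. The sum over 11 endothelial markers was 2051, 3319 and 2415 CPM in Cre 1, 2 and 3, against 1664, 1362 and 4035 CPM in flox 1, 2 and 3. Of the 11 markers 1 was lower and 0 higher, against 8.94% and 6.35% of all genes tested, and 0 were at 0 counts throughout. At an unadjusted p below 0.05 there were 3 of 11, all lower, against 34.8% of all genes tested. By sign, 5 log2 fold changes were positive and 6 negative. The library flox 3 was highest in this sum as well as among the flox libraries in Col4a1 and Col4a2. Leaving flox 3 aside, each Cre library lay above flox 1 and flox 2 in the endothelial sum. Cdh5, the largest part of the sum, stood at 622, 491 and 2011 CPM in flox 1, 2 and 3. Pecam1, Tie1, Tek, Erg, Lyve1 and Kdr were also highest of the flox libraries in flox 3. By contrast, Stab2 stood at 116, 130 and 101 CPM in flox 1, 2 and 3, and Clec4g and Vwf were likewise lowest of the flox libraries in flox 3. Stab2 stood at 36.3, 84.0 and 34.0 CPM in Cre 1, 2 and 3. All Cre libraries lay below all flox libraries for Stab2, Clec4g and Vwf. Emcn lay in between. Among the Cre libraries the order differed, with Cre 2 highest in the endothelial sum and Cre 3 highest in both chains. The part of endothelial RNA in the type IV values was not tested.

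Col4a5 and Col4a6, which encode chains of a basement membrane type known from smooth muscle and some epithelia, were lower in level and ordered the libraries differently. Col4a5 stood at 46.7, 51.6 and 16.8 CPM in Cre 1, 2 and 3, against 21.6, 13.5 and 13.4 CPM in flox 1, 2 and 3, a log2 fold change of 1.25 ± 0.43 (adjusted p = 0.0956, edgeR). Col4a6 stood at 13.3, 15.5 and 5.41 CPM in Cre, against 6.17, 3.59 and 3.68 CPM in flox, at 1.35 ± 0.44 on the log2 scale (adjusted p = 0.0812, edgeR). Cre 1 and Cre 2 were high for both chains, and Cre 3 lay below flox 1. Without Cre 3 the log2 fold changes were 1.63 and 1.71, and both passed (adjusted p = 0.0305 and 0.0367, edgeR), in a fit that called 771 of 15288 genes higher. Both also passed in DESeq2, with all 6 libraries, at adjusted p of 0.0241 and 0.0155.

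The sum of mesothelial transcripts was likewise highest in Cre 1 and Cre 2. The sum over 10 mesothelial markers was 716, 851 and 204 CPM in Cre 1, 2 and 3, against 271, 183 and 241 CPM in flox 1, 2 and 3. In edgeR 0 of 10 passed the test, against 15.3% of all genes tested. At an unadjusted p below 0.05 there were 5 of 10, against 34.8% of all genes tested. The median log2 fold change was 1.41, and 0 markers were at 0 counts throughout. Wt1, a transcription factor of mesothelium, stood at 70.5, 78.3 and 23.4 CPM in Cre, against 27.6, 15.9 and 20.6 CPM in flox. Krt7 and Krt19, which also belong to the cholangiocyte list, did not follow this order. Krt7 stood at 5.88, 8.69 and 0.905 CPM in Cre, against 8.14, 6.12 and 2.61 CPM in flox. Krt19 stood at 40.2, 29.5 and 20.2 CPM in Cre, against 34.7, 37.8 and 17.2 CPM in flox. In Cre 3 the mesothelial sum lay below flox 1 and flox 3, whereas Col8a1, at 6.43 CPM, lay above each flox library. The part of mesothelial RNA in Col4a5, Col4a6 and Col8a1 was not tested. Col4a4 had 39, 22 and 25 counts in Cre 1, 2 and 3 and 10, 24 and 7 in flox 1, 2 and 3 and was not past the test (0.91 ± 0.64, adjusted p = 0.349, edgeR).

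The genes of type IV stand in head-to-head pairs in the genome, so that the members of a pair are transcribed away from each other. In GENCODE M21 on GRCm38, the starts of Col4a1 and Col4a2 overlap by 22 bases on chromosome 8. The genes Col4a4 and Col4a3 lie 71 bases apart on chromosome 1, and Col4a6 and Col4a5 lie 1308 bases apart on chromosome X. Reads from the shared bases of Col4a1 and Col4a2 cannot be told apart if the counting ignored strand.

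Within a library, the ratio between the chains of a pair does not depend on depth, and it was far steadier than the chains themselves. The ratio of Col4a1 to Col4a2, in FPKM, was 1.75, 1.58 and 1.67 in Cre 1, 2 and 3, against 1.64, 1.65 and 1.45 in flox 1, 2 and 3, a highest over lowest value of 1.21. The FPKM of Col4a1 itself spanned a factor of 4.75 over the same 6 libraries. The ratio of Col4a5 to Col4a6 was 3.62, 3.43 and 3.20 in Cre, against 3.62, 3.88 and 3.77 in flox, a span of 1.21, against 4.47 for Col4a5 alone. Cre 2 and Cre 3 lay below each flox library in this second ratio.

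The 2 type I chains, from separate places in the genome, kept to each other as closely. The ratio of Col1a1 to Col1a2, on chromosomes 11 and 6, was 1.25, 1.04 and 1.25 in Cre 1, 2 and 3, against 1.08, 1.13 and 1.16 in flox 1, 2 and 3. Its span was 1.20, against 3.61 for Col1a1 alone. The ratio of Col6a1 to Col6a2, which lie on the same strand of chromosome 10, spanned 1.15. Other ratios did not hold. The ratio of Col6a3 to Col6a1 was 0.180, 0.0978 and 0.571 in Cre, against 0.533, 0.532 and 0.293 in flox, a span of 5.84, although these chains share a heterotrimer. The ratio of Col5a3 to Col5a1 was 0.286, 0.154 and 0.921 in Cre, against 0.843, 1.03 and 0.896 in flox, and that of Col3a1 to Col1a1 was 0.454, 0.399 and 1.08 in Cre, against 0.978, 0.961 and 0.607 in flox. In all 3 of these ratios Cre 3 stood above Cre 1 and Cre 2 and near flox 1 and flox 2. The ratio of the type V chains Col5a1 to Col5a2, on chromosomes 2 and 1, was 0.461, 0.389 and 0.923 in Cre. In flox it was 0.533, 0.567 and 0.793, and its span was 2.37.

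**Figure D4:**
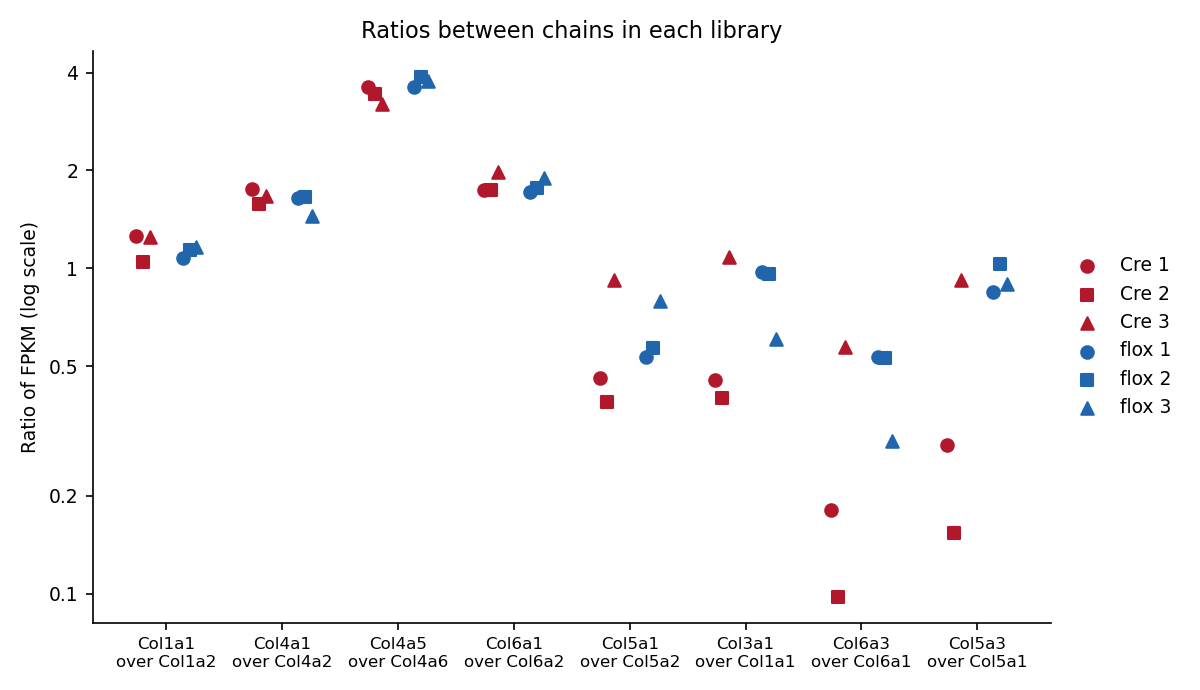
Ratios of FPKM between chains, on a log vertical axis, for 8 pairs along the horizontal axis, with red symbols for Cre and blue symbols for flox libraries. The first 4 pairs span at most 1.21 from lowest to highest library, while Col6a3 over Col6a1 and Col5a3 over Col5a1 span 5.84 and 6.73.

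In the network class, the type VI chains that form beaded microfilaments did not pass the test. Col6a1 stood at 131, 185 and 124 CPM in Cre 1, 2 and 3, against 151, 89.9 and 82.2 CPM in flox 1, 2 and 3 (0.45 ± 0.27, adjusted p = 0.284, edgeR). Col6a2 stood at 114, 161 and 95.5 CPM in Cre, against 133, 76.8 and 65.7 CPM in flox (0.43 ± 0.31, adjusted p = 0.365, edgeR). In both, flox 1 lay among the Cre libraries, as for the type I chains. Col6a3, whose product releases the fragment endotrophin, stood at 64.5, 49.4 and 194 CPM in Cre, against 219, 131 and 65.9 CPM in flox, with Cre 3 and flox 1 far above the rest (-0.43 ± 0.62, adjusted p = 0.653, edgeR). Without Cre 3 its log2 fold change was -1.25 and without flox 1 it was 0.082. Col6a5 stood at 3.40, 13.1 and 2.01 CPM in Cre, against 2.68, 1.29 and 4.68 CPM in flox, a log2 fold change of 1.09 ± 0.78 that became -0.074 without Cre 2.

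Of the FACITs other than Col12a1, none passed. Col14a1, like Col12a1 a chain bound to the surface of fibrils, stood at 32.0, 33.8 and 43.6 CPM in Cre, against 62.2, 48.3 and 27.1 CPM in flox, on the other side of 0 (-0.33 ± 0.30, adjusted p = 0.468, edgeR). Without flox 3 it was -0.60 and passed (adjusted p = 0.0469, edgeR), in a fit that called 2882 of 15296 genes lower. Col16a1 stood at 20.1, 20.1 and 19.2 CPM in Cre, against 18.8, 11.9 and 7.81 CPM in flox. Its Cre libraries were almost equal and all above flox 1, the highest flox library, with a log2 fold change of 0.62 ± 0.31 (adjusted p = 0.197, edgeR). Col20a1 and Col9a3 averaged 4.34 ± 1.30 and 1.82 ± 0.459 CPM in Cre and 4.57 ± 1.08 and 2.29 ± 0.111 CPM in flox (SD, n = 3 each).

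Among the other chains, the multiplexins of basement membrane zones had log2 fold changes of opposite sign, and neither passed the test. Col15a1 stood at 5.13, 4.15 and 26.4 CPM in Cre 1, 2 and 3, against 62.0, 37.3 and 11.8 CPM in flox 1, 2 and 3. The groups overlapped through Cre 3 and flox 3, and the log2 fold change was -1.64 ± 0.87 (adjusted p = 0.229, edgeR), or -2.96 without Cre 3 (adjusted p = 0.0585, edgeR). Col18a1, the source of endostatin, stood at 31.1, 29.8 and 57.9 CPM in Cre, against 26.4, 15.4 and 36.8 CPM in flox (0.60 ± 0.38, adjusted p = 0.311, edgeR). As for Col4a1, its highest library was Cre 3 and its highest flox library flox 3. Col7a1, the chain of the anchoring fibrils of skin, was low at 0.876, 0.700 and 1.35 CPM in Cre, against 1.89, 2.36 and 1.87 CPM in flox, without overlap of the groups (-1.06 ± 0.38, adjusted p = 0.104, edgeR). It passed in DESeq2 (adjusted p = 0.0237), which called 2358 of 14795 genes lower. The transmembrane chain Col23a1 averaged 2.67 ± 0.626 CPM in Cre and 2.06 ± 0.904 CPM in flox.

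The 12 chains left out of the test had at most 20 counts in any library. That single highest count was of Col4a3, a chain of the kidney filter, with 20, 1 and 0 counts in Cre 1, 2 and 3 and 1, 2 and 1 in flox 1, 2 and 3. Col17a1 had the highest total, with 8, 1 and 6 counts in Cre and 16, 1 and 10 in flox. Col8a2, the partner of Col8a1 in type VIII collagen, had 10, 9 and 1 counts in Cre and 1, 0 and 1 in flox, with Cre 1 and Cre 2 above the rest as for Col8a1. Col6a4, Col25a1, Col11a1, Col6a6 and Col9a2 had between 0 and 8 counts in each library. Col19a1 had 0 counts in the Cre libraries and 2, 2 and 0 in the flox libraries, and Col22a1, Col26a1 and Col28a1 had at most 1 count in any library.

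Across the 29 tested chains, the order of the libraries differed from chain to chain. The library flox 3 was the lowest of the 6 for 13 chains and flox 2 for 8, while Cre 2 was the highest for 12 and Cre 3 and flox 1 for 6 each. Cre 3 departed from Cre 1 and Cre 2 in both directions. Its Col5a3, Col15a1, Col6a3 and Col3a1 were higher and its Col4a5, Col4a6, Col24a1 and Col8a1 lower. The same library had the highest sum of 12 stellate markers, where the Cre libraries held 363, 409 and 701 CPM and the flox libraries 453, 454 and 366 CPM, with 1 of 12 higher, 0 lower and 0 at 0 counts throughout. It also had the highest sum of 11 myofibroblast markers, 615, 696 and 1373 CPM in Cre, against 676, 401 and 394 CPM in flox. In the myofibroblast list 2 of 10 tested markers were higher, 0 lower and 0 at 0 counts throughout. Of all genes tested, 6.35% were higher. The part of these shifts in the chains was not tested.

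**Figure D5:**
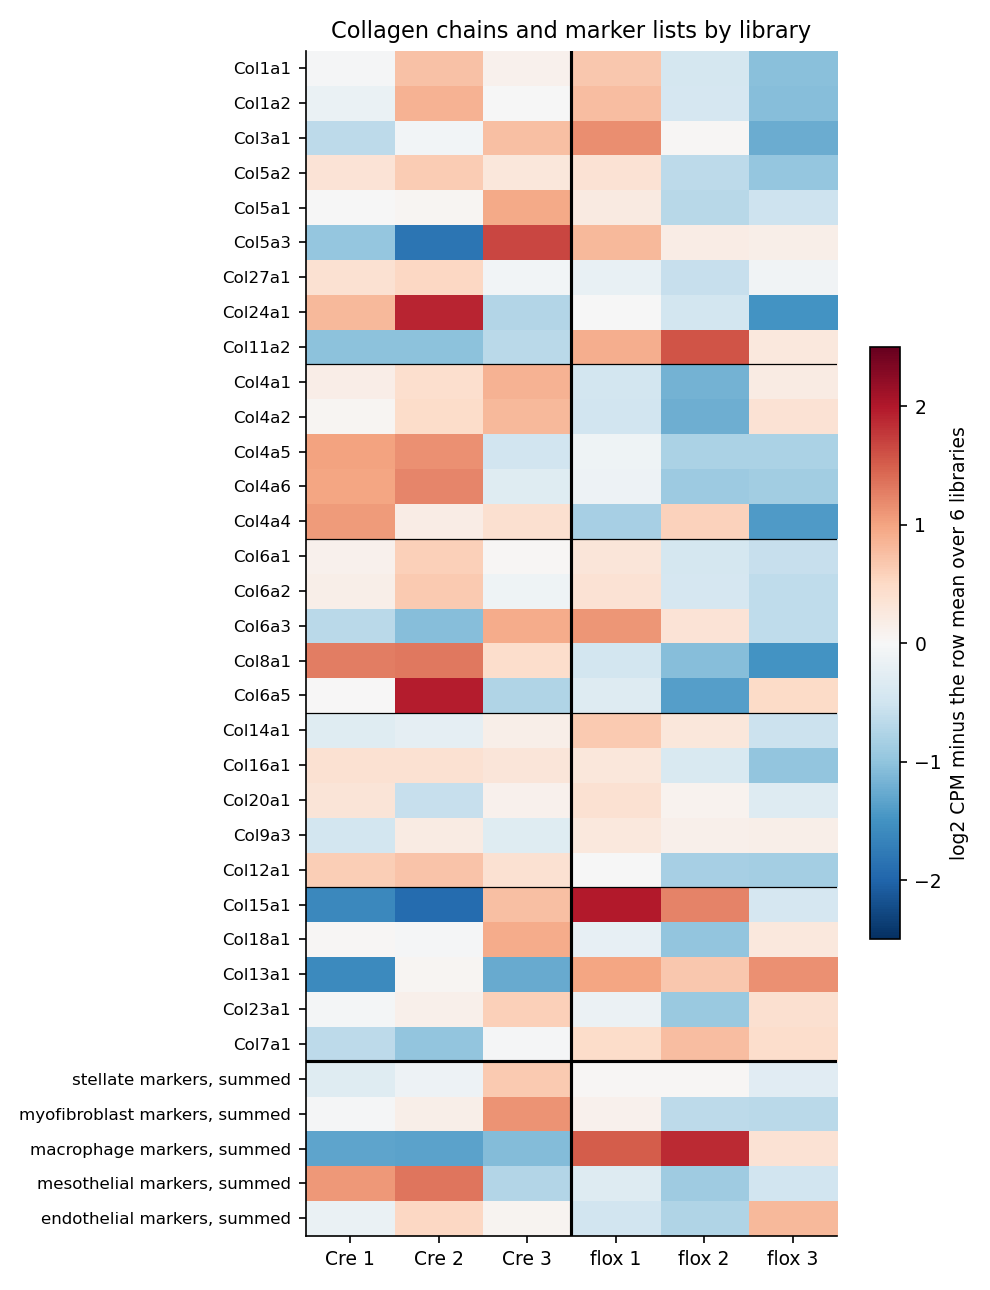
Log2 CPM of the 29 tested chains and of 5 summed marker lists, each minus its mean over the 6 libraries, from blue (low) to red (high), with Cre libraries in the left columns and flox libraries in the right columns. Cre 3 differs from Cre 1 and Cre 2 in Col5a3, Col15a1, Col6a3, Col4a5 and Col4a6, and the mesothelial sum is high in Cre 1 and Cre 2 alone.

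Genes that make, process, cross-link and bind collagen were counted beside the chains, from lists chosen with earlier results of these data known. Of 20 tested genes for hydroxylation and folding, 6 rose and 1 fell, with a median log2 fold change of 0.36. Fkbp10, a chaperone of procollagen, stood at 115 ± 9.62 CPM in Cre and 49.3 ± 12.7 CPM in flox (1.22 ± 0.20), and its relative Fkbp14 at 19.4 ± 3.62 and 7.76 ± 1.78 CPM (1.32 ± 0.23, adjusted p = 0.0241 and 0.0250, edgeR). The 1 that fell was the lysyl hydroxylase Plod1, at 169 ± 23.3 CPM in Cre and 383 ± 120.2 CPM in flox (-1.18 ± 0.25, adjusted p = 0.0320, edgeR). Of 8 tested genes for propeptide processing, 2 rose, the procollagen proteinases Bmp1 (0.99 ± 0.26) and Adamts2 (0.91 ± 0.24), and 1 fell, the enhancer Pcolce2 (-2.32 ± 0.52, edgeR adjusted p of 0.0469, 0.0475 and 0.0351). Their median was 0.95.

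Of 6 cross-linking genes, 2 rose, the lysyl oxidases Lox (1.47 ± 0.21) and Loxl1 (1.25 ± 0.32), and 1 fell, the transglutaminase Tgm2. Tgm2 stood at 947 ± 137 CPM in Cre and 2226 ± 463 CPM in flox (-1.23 ± 0.21, adjusted p = 0.0241, edgeR). Among 9 tested regulators of fibril form, 3 rose and 0 fell, the small proteoglycans Dcn (1.22 ± 0.28) and Bgn (0.97 ± 0.24) and fibronectin, Fn1 (1.14 ± 0.29). Among 14 genes of breakdown and uptake, 3 rose and 0 fell, the inhibitor Timp1 (1.20 ± 0.20), the stromelysin Mmp3 (2.0 ± 0.36) and Mmp16 (2.03 ± 0.49). Of 7 tested collagen receptors, the discoidin domain receptors Ddr2 (1.49 ± 0.24) and Ddr1 (1.18 ± 0.25) rose and the leukocyte receptor Lair1 fell (-3.41 ± 0.52). The edgeR adjusted p of the genes named in these 4 lists ran from 0.0237 to 0.0458. The median log2 fold change was 0.76 for cross-linking, 0.50 for fibril regulators, 0.25 for breakdown and uptake and 0.30 for receptors, beside 0.012 over all genes tested. Over the 6 lists, 18 of 64 tested genes rose and 4 fell, against 2 and 2 of 29 chains and 6.35% and 8.94% of all genes tested. No test was made of the lists as such. Markers of several cell types moved beside these genes. The macrophage list had a median log2 fold change of -2.98, and the sum over 10 portal fibroblast markers was 1018, 783 and 582 CPM in Cre 1, 2 and 3, against 415, 274 and 368 CPM in flox 1, 2 and 3. Each Cre library lay above each flox library in that sum, with 1 of 8 tested markers higher, 0 lower, 0 at 0 counts throughout and a median of -0.39. Most of the sum was the called marker, Fbln2, at 851, 630 and 497 CPM in Cre, against 360, 231 and 297 CPM in flox. Of the 8 tested markers, 3 had positive and 5 negative log2 fold changes, so the sum does not stand for the list. Lox, Timp1 and Postn also belong to the myofibroblast list and Dpt to the portal fibroblast list. The part of these cell types in the pathway genes was not tested.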

How the data were processed

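Raw counts per gene symbol, as deposited, and FPKM values that the authors deposited were used for 6 libraries, with 0 per-sample columns left unused. Recomputing FPKM from count, library total and 1 length per gene left 0 of 11560 genes (over 50 counts in every library) off by more than 1e-06. Builds named in the submitters' processing notes are GRCm38, mm10 and hg38. Libraries were made from total RNA with a SMARTER mRNA kit, per the labels. The sources used here do not give aligner, counter, annotation or strand.

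The main test was run in R 4.3.3 with edgeR 4.0.16. DESeq2 1.42.0, limma 3.58.1, other scalings and filters, a replicate block and leaving out each library were alternatives. filterByExpr (minimum count 10, minimum total 15) kept 14795 genes and removed 8171. TMM factors were 0.905 to 1.07. The quasi-likelihood test (two-sided, no covariate) used all 6 libraries. Standard errors were derived from F, as the size of the log2 fold change divided by F's square root. CPM are given as mean ± SD.

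Members, lists and alternatives were chosen with earlier results of these data known. Values in every library are given for called chains, types I, III, V, VI and IV (chains 1 and 2), and the 2 chains of highest FPKM per class. Each pathway list is described by its counts and at least its 2 genes of lowest p. Positions are from GENCODE M21 and sequences from RefSeq. Methods were also run on simulated counts, drawn for each gene independently and without shifts in cell types between libraries. That simulation therefore cannot speak to the effect of such shifts on the calls here.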

Additional observations from a re-analysis of the deposited data

How the results depend on the processing

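The numbers of genes called higher and lower were 1415 and 1066 with library totals, 1976 and 2358 in DESeq2 and 578 and 826 in limma-voom, against 940 and 1323. Library totals moved the median of all genes to 0.17 and the share of calls that were higher to 57.0%, and limma on log2 FPKM to 57.7 to 59.6%, against 41.5%. Collagen chains called higher numbered 2, but 4 in DESeq2 and 1 on a mean FPKM of at least 1. Chains called lower numbered 2, but 1 with library totals, in limma-voom, on log2(FPKM + 1) and on a mean FPKM of at least 1. That last filter left 19 chains to test and removed Col12a1 and Col11a2, which averaged 0.63 and 0.36 FPKM. The chains added in DESeq2 were Col4a5, Col4a6 and Col7a1. With each library left out in turn, all genes called higher ran from 0 to 2447 and lower from 0 to 2882, chains called higher from 0 to 4 and lower from 0 to 3. Each of these highest numbers came without flox 3. The median over the chains ran from 0.34 without flox 2 to 0.73 without flox 1 and kept its sign in all 16 alternatives.

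The labels do not say whether the replicate numbers pair the libraries. Deviations from the group means correlated at -0.033, -0.10 and -0.056 between libraries of the same number. With 3 libraries per group, these values cannot settle whether the libraries are paired. With the replicate block, 0 genes were called higher and 0 lower, 2098 and 2198 being at an unadjusted p below 0.05, and 0 chains were called in either direction (adjusted p of 0.0736 for Col8a1, 0.0954 for Col12a1, 0.103 for Col11a2 and 0.107 for Col13a1).

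Signs turned for 3 chains near 0. Col3a1 was at 0.0067 with library totals, 0.026 in limma-voom, 0.011 with the block, 0.18 on log2(FPKM + 1), with or without the mean FPKM filter, and 0.19 on log2(FPKM + 0.1). Col5a3 was at 0.13 with library totals and 0.014 without a count filter. Col20a1 was at 0.094 with library totals, 0.034 on log2(FPKM + 1) and 0.060 on log2(FPKM + 0.1). With 1 library left out, log2 fold changes ran, for Col1a2, from -0.0066 to 1.03, Col3a1, from -0.59 to 0.61, Col5a3, from -1.73 to 0.49, Col6a3, from -1.25 to 0.082, Col6a5, from -0.074 to 1.63 and Col20a1, from -0.24 to 0.18. The cause was not tested. Depth limits the 12 chains with at most 20 counts in any library, which were not tested.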
